A study of Homo sapiens with 4 samples.

Results

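The chemokine and colony-stimulating cytokine genes examined here were 10 of the 60649 genes counted in FaDu cells: CXCL1, CXCL2, CXCL3, CXCL8, CXCL16, CCL20, CSF1, CSF2, IL6 and LIF. They were taken by name as a set of secreted signals of epithelial cells, with earlier results of these data known. All 10 had a row in the count table. FaDu is an established human cancer line of squamous hypopharyngeal origin, grown here in MEM alpha Glutamax with fetal bovine serum. The cells carried either TINCR joined to the HA and FLAG tags and overexpressed from a construct, or an empty vector, and each group had 2 RNA sequencing libraries. The submitters call the replicates technical, so every p-value measures only the spread between these libraries. The promoter of the construct and the number of clones are details not given in the sources used here.

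Chemokines are small secreted proteins that draw leukocytes along a gradient by binding seven-pass receptors. CXCL1, CXCL2, CXCL3 and CXCL8 carry a glutamate-leucine-arginine motif before their first cysteine and attract neutrophils through CXCR2. Colony-stimulating factors act on cells of the myeloid lineage, and IL6 and LIF signal through the shared receptor subunit encoded by IL6ST. In squamous epithelium these genes are well known as rapid targets of the transcription factors NF-kB and AP-1, and many of their messenger RNAs are short-lived.

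CSF1, which encodes macrophage colony-stimulating factor, was the 1 gene of the 10 that rose with TINCR-HA-FLAG, by 1.70-fold. CXCL1, CXCL3, CXCL8 and CCL20 had higher levels in both TINCR-HA-FLAG libraries than in both empty vector libraries, by 1.19-fold to 1.83-fold, but did not pass the test. CXCL2 and IL6 had lower levels in both, also without passing it, and the groups overlapped for CXCL16 and LIF. Of all genes tested, 21.7% were higher and 17.9% lower by the same comparison of libraries. CSF2 was below detection. A gene was called where its adjusted p was under 0.05 in edgeR's quasi-likelihood test, with Benjamini-Hochberg adjustment over all 18771 genes that passed the filter on low counts. Of the 9 members that passed the filter, 1 was called, as a rise. Over all genes tested, 0.549% were called, 0.453% as rises.

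Of the 10 genes, 4 CXC chemokine genes lie close together on chromosome 4. CXCL8 (ENSG00000169429.11; 73740506 to 73743716, plus strand) and CXCL1 (ENSG00000163739.5; 73869393 to 73871242, plus strand) are followed by CXCL3 (ENSG00000163734.4; 74036589 to 74038807, minus strand) and CXCL2 (ENSG00000081041.9; 74097035 to 74099293, minus strand), all in GRCh38. The 4 promoters are shown because these genes share an NF-kB-like sequence at nearly the same place. CXCL2 had lower and the other 3 had higher levels in the TINCR-HA-FLAG libraries, but none of these 4 differences passed the test. A link between level and sequence was not tested. Each promoter is the RefSeq window (GRCh38.p14) of 250 bases before to 50 bases after the start of the gene, read 5′ to 3′ on the strand of the gene. The windows are chr4:73740319-73740618 (plus) for CXCL8, chr4:73869143-73869442 (plus) for CXCL1, chr4:74099146-74099445 (minus) for CXCL2 and chr4:74038640-74038939 (minus) for CXCL3. Capitals mark matches to the NF-kB-like letters GGANTTTCC or the AP-1 letters TGANTCA, both searched on both strands, and no match of one overlapped a match of the other.
CXCL8: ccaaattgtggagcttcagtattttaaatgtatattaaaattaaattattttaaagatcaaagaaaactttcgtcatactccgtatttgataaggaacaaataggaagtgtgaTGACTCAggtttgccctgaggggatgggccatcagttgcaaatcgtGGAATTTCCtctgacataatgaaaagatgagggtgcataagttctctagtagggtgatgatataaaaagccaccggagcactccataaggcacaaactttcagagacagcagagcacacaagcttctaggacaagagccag
CXCL1: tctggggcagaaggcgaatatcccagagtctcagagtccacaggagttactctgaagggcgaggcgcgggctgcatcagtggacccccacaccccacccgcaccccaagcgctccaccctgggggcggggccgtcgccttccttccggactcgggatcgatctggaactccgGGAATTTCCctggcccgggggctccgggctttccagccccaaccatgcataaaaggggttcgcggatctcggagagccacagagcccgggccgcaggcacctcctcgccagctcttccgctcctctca
CXCL2: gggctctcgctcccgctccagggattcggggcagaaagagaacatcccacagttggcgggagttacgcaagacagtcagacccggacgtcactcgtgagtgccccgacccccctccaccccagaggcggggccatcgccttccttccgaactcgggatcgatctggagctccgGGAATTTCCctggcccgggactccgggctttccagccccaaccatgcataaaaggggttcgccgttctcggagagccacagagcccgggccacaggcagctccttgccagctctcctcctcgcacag
CXCL3: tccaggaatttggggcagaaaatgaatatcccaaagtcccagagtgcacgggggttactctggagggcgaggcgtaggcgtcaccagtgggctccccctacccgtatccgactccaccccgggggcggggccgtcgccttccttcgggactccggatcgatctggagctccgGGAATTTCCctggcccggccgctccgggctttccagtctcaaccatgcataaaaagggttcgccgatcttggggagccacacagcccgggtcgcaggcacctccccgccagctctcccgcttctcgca

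The letters GGAATTTCC stood 78 bases before the start in CXCL1 and CXCL3, 77 bases before it in CXCL2 and 91 bases before it in CXCL8. An AP-1 match was found in CXCL8 only among the promoters searched, 137 bases before its start. IL6 had the related letters GGATTTTCC 72 bases before its start, while the windows of CCL20 and CSF2 had no match to either motif. Promoter windows were matched for 7 of the 10 genes, and CXCL16, CSF1 and LIF were not among them. Of 35116 RefSeq promoters of this length, 1.64% held the NF-kB-like letters and 7.71% the AP-1 letters. A match describes the letters only, other forms of NF-kB-like or AP-1 sequence were not searched, and no binding was measured.

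CXCL1, CXCL2 and CXCL3 are also close in their coding sequence, which bears on how their reads can be told apart. A stretch of 90 bases, positions 85 to 174 of each coding sequence in GENCODE 29, is printed with capitals at the 6 positions where the 3 genes are not all alike.
CXCL1: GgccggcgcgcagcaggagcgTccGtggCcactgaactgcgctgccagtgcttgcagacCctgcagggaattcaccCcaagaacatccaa
CXCL2: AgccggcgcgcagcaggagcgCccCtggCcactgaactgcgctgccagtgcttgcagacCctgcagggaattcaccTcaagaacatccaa
CXCL3: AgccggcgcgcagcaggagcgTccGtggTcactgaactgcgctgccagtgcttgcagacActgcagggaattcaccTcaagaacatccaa

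Over the 321 coding bases (without the stop codon), CXCL2 was identical to CXCL1 at 93.5% and CXCL3 to CXCL1 at 90.7%, while CXCL3 and CXCL2 shared 94.4%. Of all 50-base windows of CXCL2 transcripts, 12.5% also occurred in a transcript of CXCL1 or CXCL3, against 4.81% for CXCL1 and 6.01% for CXCL3. At 100 bases the shared windows were 79 of 1581 for CXCL2, 79 of 2413 for CXCL3 and 0 for CXCL1. The values of CXCL1, CXCL2 and CXCL3 are uncertain, since how shared reads were counted is not given in the sources used here. The shares of windows do not bound this error, because shared reads of an abundant gene can be many beside a scarce one. Summed over the empty vector libraries, CXCL1 had 545 counts and CXCL3 had 24. No 50-base window of CXCL8, CCL20, CSF1, CSF2, IL6 or LIF occurred in a transcript of another gene.

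Levels spanned a wide range. Levels are given as CPM, the count of a gene relative to the TMM-scaled size of its library. Per kilobase of exonic length, the order with the empty vector was CXCL16 at 19.0 CPM, CXCL1 at 12.3, CXCL8 at 8.88, CSF1 at 6.48, LIF at 4.43 and CXCL2 at 3.09. IL6, CCL20, CXCL3 and CSF2 followed at 0.468, 0.387, 0.317 and 0.112 CPM per kilobase. The library ranges of neighbours in this order did not overlap. The exact 95% Poisson intervals, which cover counting error only, did for IL6 (0.322 to 0.657), CCL20 (0.239 to 0.591), CXCL3 (0.203 to 0.472) and CSF2 (0.0231 to 0.327). Those of IL6 and CSF2 met only at their ends. Overlap of intervals is not a test of a difference, and the order of these 4 was not tested. With TINCR-HA-FLAG the first 6 places were the same, with CXCL8 at 10.94 to 11.32 CPM per kilobase and CSF1 at 10.95 to 11.04, whose library ranges overlapped. Exonic length was taken over all annotated transcripts, so levels per kilobase are low for a gene whose cells use a short transcript.

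**Figure D1:**
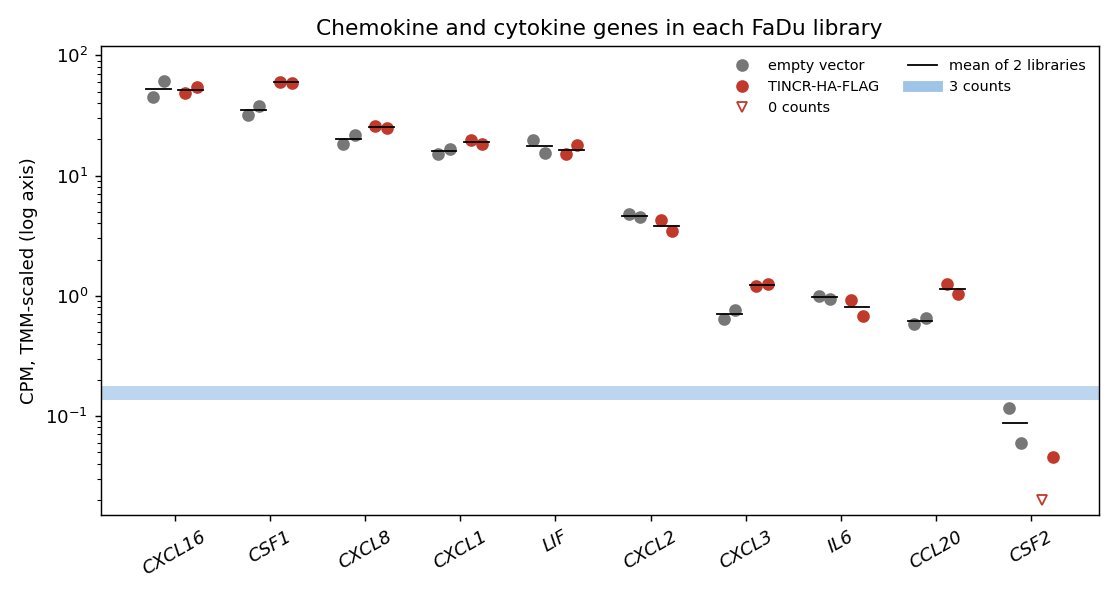
Level of each of the 10 genes in each of the 4 libraries, in TMM-scaled CPM on a log axis. Grey points are empty vector and red points TINCR-HA-FLAG libraries, black lines are group means, and the blue band is the level of 3 counts in these libraries. CSF1 sits at 32.0 and 38.2 CPM against 59.8 and 59.3 CPM, and CSF2 lies below the band in all 4 libraries.

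Among the ligands of CXCR2, CXCL8 and CXCL1 were the most abundant. CXCL8, the neutrophil attractant also known as interleukin 8, had 316 and 372 counts for the empty vector and 474 and 552 for TINCR-HA-FLAG. Its level was 20.2 ± 2.47 against 25.3 ± 0.607 CPM (SD, n = 2 per group). Both TINCR-HA-FLAG libraries were above both empty vector libraries, as they were for 21.7% of all genes tested. The fitted log2 fold change was 0.33 (SE 0.14), with an adjusted p of 0.45 in edgeR (unadjusted p = 0.038). Its 95% interval ran from 1.02-fold to 1.55-fold before adjustment.

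CXCL1 encodes the growth-regulated chemokine first isolated from melanoma cells. It had 261 and 284 counts for the empty vector and 365 and 407 for TINCR-HA-FLAG, or 15.99 ± 1.07 against 19.1 ± 1.04 CPM (SD, n = 2 per group). The groups did not overlap, and the log2 fold change of 0.25 (SE 0.14) had an adjusted p of 0.62 in edgeR. The interval, 0.958-fold to 1.48-fold, leaves out a rise of 1.5-fold or more before adjustment. The ratio of CXCL8 to CXCL1 counts within a library, which no scaling can move, was 1.21 and 1.31 for the empty vector and 1.30 and 1.36 for TINCR-HA-FLAG, and these ranges overlapped.

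CXCL2, a macrophage inflammatory chemokine gene, had values on the other side. It had 82 and 76 counts for the empty vector and 78 and 76 for TINCR-HA-FLAG, in spite of the larger TINCR-HA-FLAG libraries. In CPM this was 4.63 ± 0.215 against 3.83 ± 0.573 (SD, n = 2 per group), with no overlap between the groups. Its log2 fold change of -0.28 (SE 0.26) had an adjusted p of 0.79 in edgeR, and its interval ran from 0.55-fold to 1.22-fold. The ratio of CXCL1 to CXCL2 counts was 3.18 and 3.74 for the empty vector and 4.68 and 5.36 for TINCR-HA-FLAG. Both TINCR-HA-FLAG ratios were thus above both empty vector ratios (exact permutation p = 0.333, two-sided, the smallest that 2 against 2 libraries can give, for 5 ratios compared).

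CXCL3, the third member of the growth-regulated group, was close to the filter. It had 11 and 13 counts against 22 and 28, or 0.704 ± 0.0882 against 1.23 ± 0.0477 CPM (SD, n = 2 per group). The groups did not overlap. The exact 95% Poisson intervals of the summed counts, 0.451 to 1.05 and 0.914 to 1.62 CPM, did. The log2 fold change of 0.80 (SE 0.48) had an adjusted p of 0.65 in edgeR, and at this depth an interval from 0.829-fold to 3.66-fold. When the counts of CXCL1, CXCL2 and CXCL3 were summed to 1 gene, the log2 fold change was 0.18 (SE 0.13, adjusted p = 0.73 in edgeR).

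**Figure D2:**
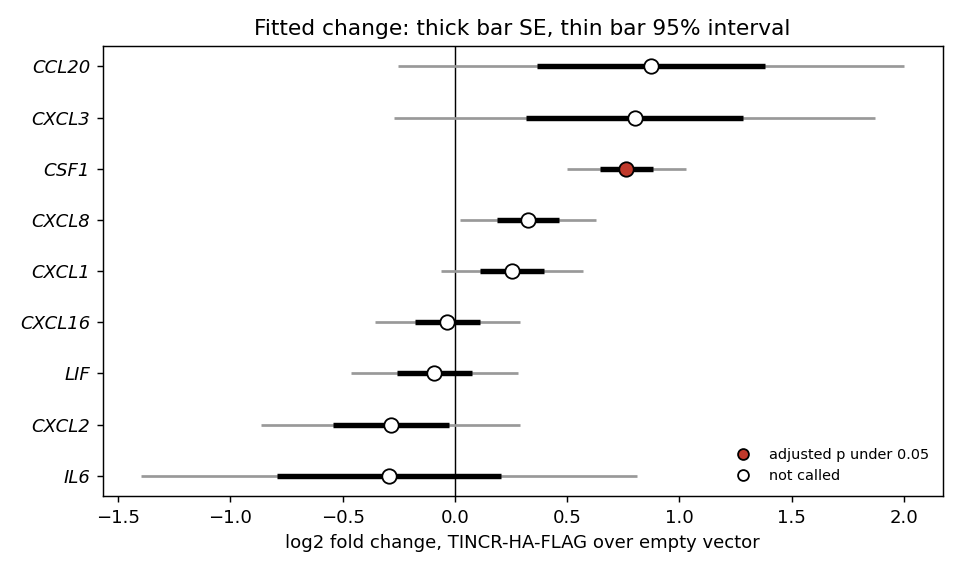
Fitted log2 fold change of TINCR-HA-FLAG over empty vector for the 9 genes tested, with the standard error as a thick bar and the 95% interval, not adjusted for multiple tests, as a thin bar. CSF1 at 0.76 is the 1 called gene (red). CCL20 and CXCL3 have larger estimates of 0.87 and 0.80 but intervals that include 0.

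CXCL16 (ENSG00000161921.17; chromosome 17, 4733526 to 4739922, minus strand) encodes a chemokine that is made as a membrane protein and shed by ADAM10 and ADAM17. Per kilobase it had the highest level of the 10. It had 770 and 1034 counts for the empty vector and 894 and 1217 for TINCR-HA-FLAG, or 52.97 ± 11.3 against 51.7 ± 4.46 CPM (SD, n = 2 per group). Both TINCR-HA-FLAG libraries lay between the empty vector libraries. The fitted log2 fold change was -0.03 (SE 0.15, adjusted p = 0.97 in edgeR), and the interval ran from 0.78-fold to 1.22-fold. It shares 85 exonic bases with MED11 on the other strand, a gene with 96 to 170 counts.

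CCL20 (ENSG00000115009.13; chromosome 2, 227805739 to 227817564, plus strand) encodes the ligand of CCR6, which draws dendritic cells and lymphocytes to epithelia. It had 10 and 11 counts for the empty vector and 23 and 23 for TINCR-HA-FLAG. The groups did not overlap, at 0.616 ± 0.0460 against 1.14 ± 0.150 CPM (SD, n = 2 per group). Its estimate of 0.87 on the log2 scale (SE 0.51) was the largest of the 9, with an adjusted p of 0.63 in edgeR and an interval from 0.838-fold to 4.004-fold. The exact 95% Poisson intervals were 0.381 to 0.942 CPM and 0.829 to 1.51 CPM.

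CSF1 (ENSG00000184371.14; chromosome 1, 109910242 to 109930992, plus strand) encodes the growth factor that keeps macrophages and their precursors alive. It had 548 and 648 counts for the empty vector and 1102 and 1316 for TINCR-HA-FLAG. This was 35.1 ± 4.41 against 59.6 ± 0.371 CPM (SD, n = 2 per group), and both TINCR-HA-FLAG libraries were well above both empty vector libraries. The log2 fold change was 0.76 (SE 0.12, adjusted p = 0.025 in edgeR), with a 95% interval from 1.41-fold to 2.04-fold. DESeq2 also called it (adjusted p = 0.00093), and it called 0.903% of the genes to which it gave an adjusted p higher. A fit with a library left out keeps 1 library in that group, which is taken to vary like the other group. The edgeR call did not hold when empty vector replicate 1 was left out (adjusted p = 0.087, log2 fold change 0.60) and when no filter was applied (adjusted p = 0.076). In bulk RNA, more cells that express a gene and more RNA per cell cannot be told apart.

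The ratio of CSF1 to other members within a library used the same counts as its test, so it adds no separate support. CSF1 counts were 0.712 and 0.627 of those of CXCL16 with the empty vector. With TINCR-HA-FLAG they were 1.23 and 1.08 times those of CXCL16. Against CXCL8 the ratio was 1.73 and 1.74, then 2.32 and 2.38. Neither pair of ranges overlapped. Each had the smallest p that 4 libraries allow (exact permutation p = 0.333, two-sided, for 5 ratios compared), so this test could not show a difference. Of all reads counted in the 10 genes, CSF1 took 23.3% and 23.8% for the empty vector and 33.9% and 32.6% for TINCR-HA-FLAG.

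Among 11983 other tested genes whose mean log2 CPM was at least 2, those closest to CSF1 in pattern were CUEDC1, OLR1 and HID1. The measure was the Euclidean distance between log2 CPM values centred over the 4 libraries, and it was 0.040, 0.041 and 0.052. Their log2 fold changes were 0.73, 0.78 and 0.73, and edgeR called CUEDC1 and OLR1 (adjusted p = 0.025 for both) but not HID1 (adjusted p = 0.21). With 4 libraries such a likeness is a description only.

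CSF2 (ENSG00000164400.6; chromosome 5, 132073790 to 132076170, plus strand) encodes the granulocyte-macrophage colony-stimulating factor. It had 2 and 1 counts for the empty vector and 0 and 1 for TINCR-HA-FLAG. All 4 libraries were under 3 counts, the limit that a count of 0 allows, which is 0.13 to 0.18 CPM at these depths. It did not pass the filter and was not tested, and a difference between the groups was not detectable at this depth.

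IL6 (ENSG00000136244.12; chromosome 7, 22725884 to 22732002, plus strand), the inflammatory cytokine gene, was detected at a low level. It had 17 and 16 counts against 17 and 15, or 0.968 ± 0.0344 against 0.800 ± 0.175 CPM (SD, n = 2 per group). The scaled levels did not overlap. The log2 fold change of -0.29 (SE 0.50) had an adjusted p of 0.91 in edgeR, and the interval from 0.379-fold to 1.76-fold left room for changes either way. The genes STEAP1B and IL6-AS1 overlap it on the other strand, and each had at most 2 counts in a library.

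LIF (ENSG00000128342.5; chromosome 22, 30240447 to 30246851, minus strand) encodes leukemia inhibitory factor, a relative of IL6. It had 338 and 262 counts for the empty vector and 276 and 398 for TINCR-HA-FLAG. The levels of 17.6 ± 3.02 against 16.5 ± 2.09 CPM (SD, n = 2 per group) overlapped. A log2 fold change of -0.09 was fitted (SE 0.17, adjusted p = 0.91 in edgeR), with an interval from 0.725-fold to 1.22-fold. The antisense genes LIF-AS1 and LIF-AS2 had at most 6 and 13 counts in a library.

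Across the 9 genes tested, the groups did not overlap for 7 (5 higher and 2 lower), beside 39.6% of all genes tested. The median log2 fold change of the 9 was 0.25, beside 0.004 over all genes. The genes were chosen with earlier results of these data known, so these values are a description only. An unadjusted edgeR p under 0.05 was found for 2 of the 9, CSF1 and CXCL8, and for 10.2% of all genes tested. Without empty vector replicate 1 the estimates of CXCL8 and CXCL1 were 0.16 and 0.15, and without empty vector replicate 2 they were 0.46 and 0.33. CXCL16 and LIF changed sign with the library left out.

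**Figure D3:**
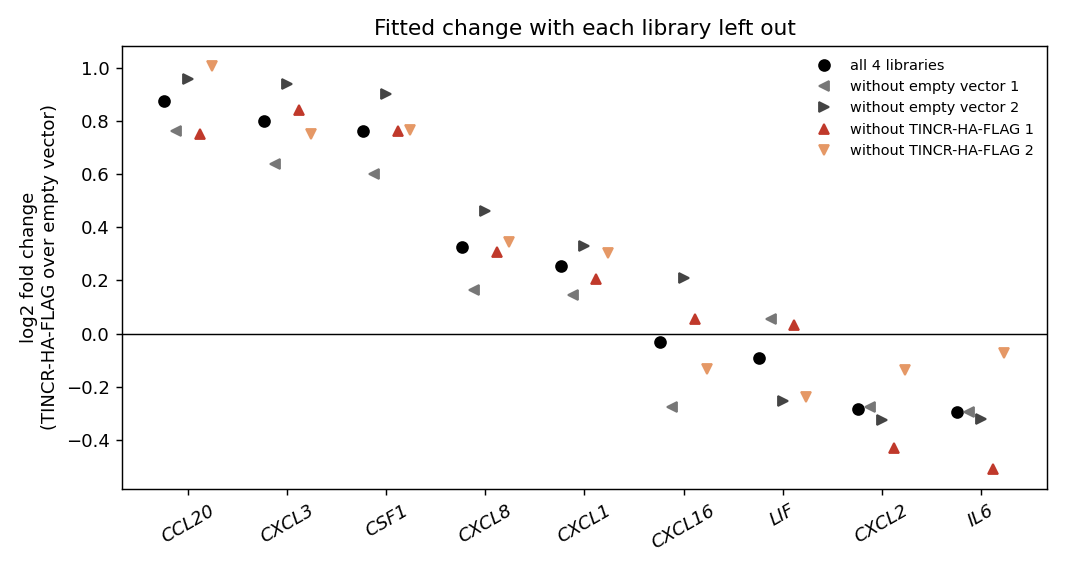
Log2 fold change of the 9 tested genes with all 4 libraries (black circles) and with each library left out in turn (triangles). CSF1 stays between 0.60 and 0.90 and CXCL2 between -0.43 and -0.14, while CXCL16 (-0.28 to 0.21) and LIF (-0.25 to 0.055) cross 0.

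The messenger RNAs of these genes differ in the pentamer ATTTA of their 3′ untranslated regions, which is known from AU-rich elements that shorten the life of a transcript. In the transcript with the longest coding sequence per gene (GENCODE 29), the density was 25.2 per kilobase in CSF2, 13.99 in IL6, 13.9 in CXCL2 and 10.4 in CXCL3. It was 7.19 in CXCL8, 7.08 in CXCL1 and 6.65 in CCL20, against 2.18 in LIF, 1.86 in CSF1 and 1.02 in CXCL16. The median over 18172 genes was 1.45 per kilobase. CSF1 thus stood close to the median gene (56.6% of genes had a lower density), while CXCL2 and IL6 were above 99.3% of genes. The longer form TATTTAT occurred 8 times in CXCL2, 7 in CSF2 and 5 in LIF, whose untranslated region had 3204 bases. It occurred 4 times each in CXCL8 and CXCL1, and 3 times each in CXCL3 and IL6. CCL20 and CSF1 had 1 copy each and CXCL16 had 0. Of the 18172 genes, 28.8% had this form. These are counts of letters, and no decay was measured.

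The receptors that would receive these signals within the culture were measured in part. Of 11 receptor genes, 5 passed the filter and none was called by edgeR or DESeq2, with 0 at an unadjusted edgeR p under 0.05. Transcripts were found for IL6ST, the shared signal subunit (42.5 ± 0.809 against 37.97 ± 1.43 CPM), LIFR (39.96 ± 0.952 against 33.8 ± 1.97 CPM) and IL6R (12.4 ± 0.0751 against 10.4 ± 1.98 CPM; SD, n = 2 per group). For these 3 both TINCR-HA-FLAG libraries were lower than both empty vector libraries, as for 17.9% of all genes tested, at edgeR adjusted p of 0.70, 0.52 and 0.74. CXCR2, the receptor of CXCL1 and CXCL8, lay the other way, at 2.69 and 2.83 CPM for the empty vector and 2.93 and 2.97 CPM for TINCR-HA-FLAG (46 to 66 counts per library, edgeR adjusted p = 0.95). CSF1R, the receptor of CSF1, had 7 to 17 and did not pass the filter. CCR6, CSF2RA and CSF2RB had 0 counts in all 4 libraries.

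Few other chemokine genes were expressed. Of 32 listed, 6 passed the filter and edgeR called none of them, while 2 had an unadjusted p under 0.05. CCL22, a macrophage-derived ligand of CCR4, had 45 and 45 counts for the empty vector and 113 and 140 for TINCR-HA-FLAG (log2 fold change 1.24, SE 0.26, adjusted p = 0.079 in edgeR and 0.049 in DESeq2). CCL5, a chemokine that attracts T cells, had 52 and 91 against 129 and 167 counts (log2 fold change 0.79, SE 0.27, edgeR adjusted p = 0.34). XCL1 had 30 to 49 counts in the 4 libraries. These lists were chosen for their link to the 10 genes with earlier results of these data known.

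Of 18 related growth and IL6-type cytokine genes, 11 passed the filter, and 1 rose, beside 0.453% of all genes tested. An unadjusted edgeR p under 0.05 was found for 5 of the 11, beside 10.2% of all genes tested. CTF1, which encodes the IL6 family member cardiotrophin, had 148 and 159 counts for the empty vector and 286 and 416 for TINCR-HA-FLAG (9.01 ± 0.523 against 17.1 ± 2.28 CPM; SD, n = 2 per group). The fitted log2 change of 0.93 (SE 0.17) had an adjusted p of 0.048 in edgeR, a call lost with RLE scaling (0.052), with no filter on low counts (0.11), when empty vector replicate 1 (0.082) or TINCR-HA-FLAG replicate 2 (0.053) was left out. The stem cell factor gene KITLG had 55.8 ± 5.84 against 57.96 ± 1.66 CPM, the interleukin gene IL18 49.3 ± 5.70 against 37.2 ± 0.391 CPM and the IL6 family gene CLCF1 19.4 ± 1.27 against 18.04 ± 0.940 CPM (SD, n = 2 per group; edgeR adjusted p = 0.92, 0.23 and 0.87).

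Among 20 inducers and transcription factors of these genes, 18 passed the filter, 3 fell and none rose. Over all 18771 genes tested, 18 were called lower. This list, too, was chosen with earlier results of these data known. IL1A and IL1B, which encode the interleukin 1 cytokines known to induce CXCL8, CXCL1 and IL6, fell by 1.23 and 1.09 on the log2 scale (SE 0.16 and 0.13, adjusted p = 0.0082 and 0.0047 in edgeR), and these calls were kept under every alternative run, in 4 of which 1 group had a single library. FOSL1, an AP-1 subunit gene, fell by 0.80 (SE 0.13, adjusted p = 0.025 in edgeR; 0.078 with no filter on low counts). The NF-kB subunit gene RELA had 336 ± 19.7 against 352 ± 39.4 CPM, STAT3 196 ± 8.82 against 205 ± 6.77 CPM and the tumour necrosis factor receptor gene TNFRSF1A 181 ± 9.92 against 170.1 ± 6.92 CPM (SD, n = 2 per group; edgeR adjusted p = 0.91, 0.90 and 0.85). TNF itself had 0 to 6 counts. Levels of IL1A and IL1B thus fell in libraries where CXCL8 and CXCL1 had higher and IL6 had lower levels. The differences of CXCL8, CXCL1 and IL6 did not pass the test, and no relation between these genes was tested.

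No gene of mRNA decay and feedback (14 tested of 14, median log2 fold change 0.11) or of shedding (6 tested of 8, median 0.05) was called by edgeR or DESeq2, and 2 in each list had an unadjusted edgeR p under 0.05. ZFP36L1, which encodes a protein that binds AU-rich elements, had 166 ± 7.32 against 202 ± 7.48 CPM (edgeR adjusted p = 0.36). The RNA-binding protein genes KHSRP and HNRNPD had 309 ± 33.1 against 285 ± 23.9 and 204 ± 0.201 against 191 ± 2.18 CPM. The protease genes ADAM10, FURIN and ADAM17 had 199 ± 7.19 against 207 ± 11.05, 99.7 ± 9.03 against 105 ± 15.2 and 38.5 ± 1.61 against 39.4 ± 1.75 CPM (SD, n = 2 per group).

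**Figure D4:**
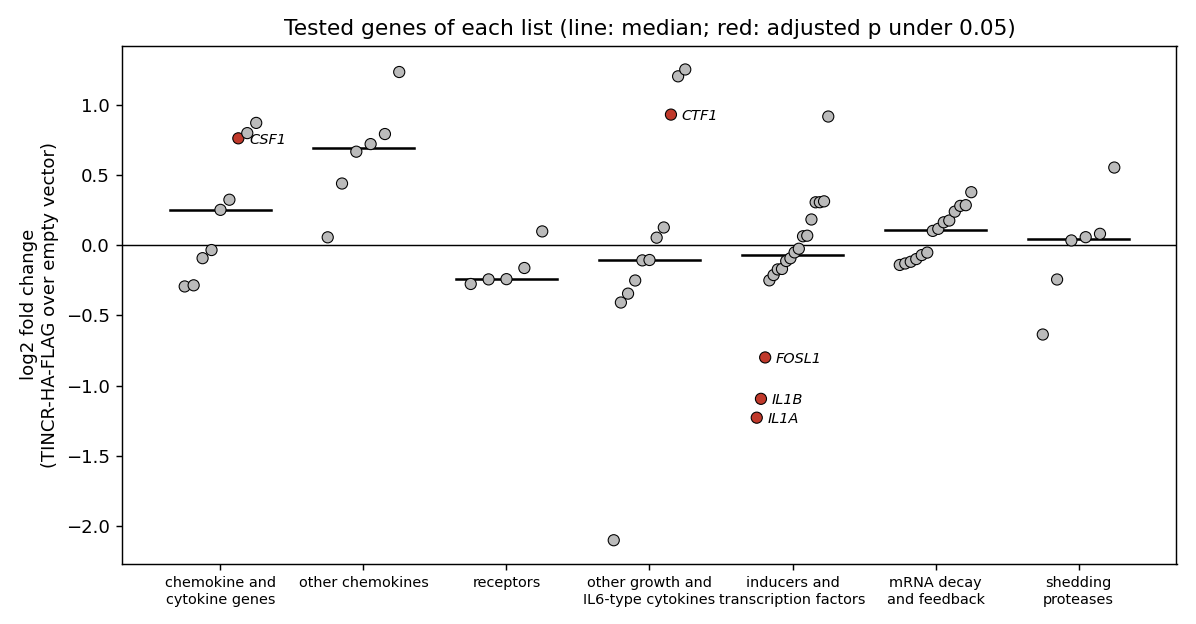
Every tested gene is plotted by its log2 fold change, for the set of 10 and 6 related lists, with the median of each list's tested genes as a line and called genes in red. CSF1 at 0.76 and CTF1 at 0.93 are the called rises, and IL1A, IL1B and FOSL1, between -1.23 and -0.80, are the called falls.

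The libraries held 17069533 and 17315648 counts for the empty vector and 18151424 and 22331602 for TINCR-HA-FLAG. TINCR had 68 and 64 counts for the empty vector and 1921 and 2943 for TINCR-HA-FLAG, which matches the labels. All 10 squamous epithelial markers passed the filter, with summed levels of 8289 to 9574 CPM with the empty vector and 6964 to 8352 CPM with TINCR-HA-FLAG, and KRT14 was called lower among them by edgeR. DESeq2 called KRT14, SFN and KRT6A lower (SFN and KRT6A at adjusted p = 0.00093 and 0.041, against 0.074 and 0.11 in edgeR). DESeq2 called 1.31% of the genes to which it gave an adjusted p, in either direction. Both TINCR-HA-FLAG libraries were below both empty vector libraries for 6 of the 10 markers, and for 17.9% of all genes tested. Leukocyte markers summed to 6.84 to 10.4 CPM over all libraries, with CD14 making up most of it and PTPRC, the common leukocyte marker, at 3 to 6 counts. Fibroblast markers summed to 41.8 and 45.9 CPM against 50.6 and 50.9 CPM, and endothelial markers to 10.6 and 11.1 against 13.5 and 14.2 CPM. The part of these shifts in the levels of CSF1 was not tested.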

How the data were processed

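Total RNA (RNeasy) of FaDu cells was sequenced as 4 NEBNext Ultra libraries, per the labels' protocols. The authors deposited raw counts of reads per Ensembl gene. STAR 2.7.9a, bcl2fastq 2.20.0.422, DESeq2 1.32.0 and GRCh38 stand without roles in the submitters' processing notes. How reads were counted, and on which strand, is not given in the sources used here, so overlapping antisense genes may share reads. The table has 12 other library columns of samples not described here, which were not used. Symbols came from a reference table (60463 of 60649 rows matched), and positions and exonic lengths from GENCODE 29.

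Groups and replicate numbers came from the sample titles. Counts were scaled by TMM, filtered with filterByExpr (18771 genes left) and tested with edgeR 4.0.16 (quasi-likelihood, robust) in R 4.3.3. The SE of a log2 fold change was its absolute value divided by the square root of the F statistic of the test. Intervals of fold changes used this SE and the moderated degrees of freedom of that fit, and intervals of low counts were exact Poisson intervals. The Poisson intervals cover counting error only and leave out the spread between libraries. Reads lacking molecular identifiers can repeat a molecule, so these intervals may be too narrow. The tests were checked on simulated counts.

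The 10 genes and the lists were chosen with earlier results of these data known. Related lists are named by their called genes and their 3 most abundant members. Alternatives were DESeq2 1.42.0, RLE factors, library totals, no filter, 1 CPM in 2 libraries, TINCR left out, the replicate block, the legacy dispersion, the summed paralogs and each library left out.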

Additional observations from a re-analysis of the deposited data

How the results depend on the processing

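Over all genes, edgeR called 103. DESeq2 called 188, edgeR with no filter on low counts 53, and leaving out 1 library gave 124 to 386 (124 and 172 without empty vector replicates 1 and 2 in turn, 232 and 386 without TINCR-HA-FLAG replicates 1 and 2 in turn). Of the 10 genes, 1 was called, against 0 with no filter on low counts and 0 to 1 with a library left out. The 0 came without empty vector replicate 1, and the gene lost was CSF1 both times. With the replicate number as a block, 2633 genes were called (14% of those tested), and 2 of the 10, CSF1 and CXCL8 (log2 fold change 0.32, adjusted p = 0.020). Same-numbered libraries deviated together (r = 0.58 across 11984 genes, which are not independent), but 2 pairs that share only a number do not establish pairing. Of 113 alternative values of single genes, 106 kept direction and call, with CXCL3, CCL20 and IL6, to which DESeq2 gave no adjusted p, taken as not called there. With a library left out, CXCL16 ran from -0.28 to 0.21 and was above 0 when empty vector replicate 2 (0.21) or TINCR-HA-FLAG replicate 1 (0.056) was missing. LIF ran from -0.25 to 0.055 and was above 0 when empty vector replicate 1 (0.055) or TINCR-HA-FLAG replicate 1 (0.034) was missing. The cause was not tested. A group left with 1 library was taken to vary like the other group. Depth limits CSF2, IL6, CCL20 and CXCL3, which had at most 28 counts in a library.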

Other observations

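Some genes close to the set had low counts that did not pass the filter. They were chosen after their values were seen and were not tested. CXCL6, a CXCR2 ligand between CXCL8 and CXCL1 on chromosome 4, had 2 and 4 counts for the empty vector and 9 and 12 for TINCR-HA-FLAG. CXCL5, between CXCL1 and CXCL3, had 2 and 0 against 2 and 4 counts, and PF4V1 had 0 in all 4 libraries. CSF3, which encodes the granulocyte colony-stimulating factor, had 5 and 3 against 10 and 10 counts.

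Of the related cytokines, IL15 and IL24 were also picked after their values were seen. IL15, a growth factor of natural killer cells, had 51 and 29 counts for the empty vector and 100 and 120 for TINCR-HA-FLAG (log2 fold change 1.21, SE 0.31, adjusted p = 0.16 in edgeR and 0.13 in DESeq2). IL24 had 15 and 11 against 4 and 3 counts and was at this depth close to the filter. Neither was called.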
